A study of Mus musculus with 4 samples.

Results

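Molecular chaperones of the cytosol, the mitochondria and the endoplasmic reticulum (ER) were followed in the heart ventricles of mice given a mineralocorticoid with or without salt. The genes were chosen by a rule on their symbols that used no measured value, although earlier results of these data were known. They comprised the HSP70 and HSP110 genes, the J-domain genes, the CCT chaperonin, HSP60, the small heat shock genes, the protein disulfide isomerases, calreticulin, calnexin, the BAG co-chaperones and the FK506-binding and cyclophilin immunophilins. Fkbp5 and Hspg2 were left out, and the HSP90 genes do not match the symbols. A total of 130 clones of 66 genes carried values, of 12480 clones and 8106 genes with 1 symbol on the array. Hspa1a had no value on any array. The 66 genes were divided broadly by the compartment or family of their products into 40 cytosolic, 3 small heat shock, 6 mitochondrial and 17 ER genes. The cytosolic set is not strict and also holds products found elsewhere, such as the nuclear FKBP25 (Fkbp3).

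All 6 mice were male, wild-type animals labelled 1-renin from an N5–6 backcross (129Ola/C57BL/6J), uninephrectomized and treated with deoxycorticosterone acetate (DOCA) for 5 weeks from the age of 7 to 8 weeks. Every mouse ate food with 0.5 mg Na per g, so the low-salt mice carried the same surgery, hormone and diet as the high-salt mice. The 3 high-salt mice drank 1% NaCl for 5 weeks and the other 3 had normal drinking water. The right and left ventricles with the septum were taken whole at 12 to 13 weeks. RNA of 1 high-salt and 1 low-salt heart was hybridised together on each of 4 printed cDNA arrays, with Cy3 on the high-salt RNA of arrays 1 and 2 and Cy5 on that of arrays 3 and 4. Arrays 2 and 4 held the same pair of mice with the dyes exchanged, and their average counts as 1 pair, so n was 3 pairs (pair 1 on array 1, pair 2 on arrays 2 and 4, pair 3 on array 3). Values are log2 ratios, taken as base 2 and read as high over low salt after the wording of the titles. That direction is likely and not settled, so means are also given with arrays 1 and 2 turned in sign, called the turned reading here. The ratios give no expression level, and their precision is limited by the number of arrays.

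Chaperones hold newly made or damaged proteins until they fold. HSP70 binds exposed hydrophobic stretches in a cycle of ATP hydrolysis that J-domain proteins start and that exchange factors such as the BAG proteins and HSP110 complete, while the CCT chaperonin encloses actin and tubulin in a ring. In the ER, BiP (Hspa5) is the HSP70, calnexin and calreticulin bind sugar-tagged proteins, and disulfide isomerases pair cysteines. Heat shock factor switches on the cytosolic set through repeats of nGAAn, and ATF6 and related factors switch on the ER set through the ER stress element. In heart muscle the small heat shock proteins guard desmin and sarcomere proteins, and calreticulin and BiP also buffer calcium.

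Promoters of 4 members are shown because they carry the elements that these stress responses use, which makes them the genes in which a shared response would be looked for. RefSeq windows (GRCm38.p6, 250 bases before to 50 after each start) matched 54 of the 66 members. The ER stress element, searched as CCAAT followed after 9 free bases by CCACG, on both strands, lay in the windows of 5 of these 54 members (9.26%), namely Hspa5, Dnajc3, Calr, Canx and Pdia6, and in those of 37 of 27025 genes (0.137%). The heat shock element was searched on both strands as the 2-unit form GAANNTTC and as a 3-unit form, in which a further GAA or TTC follows in turn at the same spacing. The 3-unit form lay in 3 of 54 (5.56%), Hsph1, Dnajb6 and Hspd1, against 179 of 27025 (0.662%). The 2-unit form, which each 3-unit match also contains, lay in 10 of 54 (18.5%) against 2442 of 27025 (9.04%). The 250 bases before the start are printed 5′ to 3′ on the gene's strand, with the matched element in capitals. Hspa5 is at chr2:34771840-34772089 on the plus strand, with its match starting 65 bases before the start. Calr is at chr8:84846932-84847181 on the minus strand, with the element in reverse orientation 162 bases before the start. Canx is at chr11:50325674-50325923 on the minus strand, with its match 145 bases before the start. Hspd1 is at chr1:55087933-55088182 on the minus strand, with overlapping matches 144 and 139 bases before the start. A match is a description of letters and not evidence of binding.
Hspa5: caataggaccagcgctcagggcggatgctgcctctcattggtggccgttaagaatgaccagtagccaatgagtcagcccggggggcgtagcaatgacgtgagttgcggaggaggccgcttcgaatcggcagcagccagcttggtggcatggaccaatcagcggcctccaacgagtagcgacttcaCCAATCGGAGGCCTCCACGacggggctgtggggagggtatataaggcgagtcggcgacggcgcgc
Calr: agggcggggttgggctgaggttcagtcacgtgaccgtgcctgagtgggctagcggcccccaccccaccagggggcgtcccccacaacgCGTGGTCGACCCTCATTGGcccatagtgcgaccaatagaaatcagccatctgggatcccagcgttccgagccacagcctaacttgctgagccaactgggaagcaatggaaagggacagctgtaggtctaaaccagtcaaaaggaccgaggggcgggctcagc
Canx: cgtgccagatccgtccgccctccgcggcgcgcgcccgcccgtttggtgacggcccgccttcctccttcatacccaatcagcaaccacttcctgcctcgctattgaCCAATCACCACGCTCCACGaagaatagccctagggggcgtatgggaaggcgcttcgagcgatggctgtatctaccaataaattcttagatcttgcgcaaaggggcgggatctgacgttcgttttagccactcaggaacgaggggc
Hspd1: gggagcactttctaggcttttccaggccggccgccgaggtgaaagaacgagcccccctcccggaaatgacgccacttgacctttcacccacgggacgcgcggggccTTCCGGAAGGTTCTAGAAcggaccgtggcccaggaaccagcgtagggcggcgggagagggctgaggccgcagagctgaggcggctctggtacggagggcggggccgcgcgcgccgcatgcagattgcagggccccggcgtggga

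No chaperone gene differed between high and low salt by limma with Benjamini-Hochberg adjustment over all 8106 genes, and no other gene did either (percent called 0, smallest adjusted p = 0.640 over all genes and 0.863 over the chaperones). At an unadjusted limma p under 0.05, 4 of 66 chaperones (6.06%) had higher values in high salt (Bag2, Fkbp1a, Ppid and Ppic), beside 2.81% of all genes (228). Lower values at that level were found for Tcp1 and Fkbp3, 2 of 66 (3.03%), beside 2.63% of all genes (213), so that 6 of 66 passed in either direction beside 5.44% (441). Without pair 1 the count of higher chaperones was 0, beside 165 of all 8106 genes, and without pair 2 it was 0, beside 74. The count of lower chaperones was 0 without pair 2, beside 71 of all genes, and 4 without pair 3, beside 340. The share of all genes thus also moved with the pair left out. The mean log2 ratio was above 0 for 26 chaperones and below 0 for 40, where 49.8% of all genes were above and 50.2% below. Under the turned reading 33 of 66 chaperones were above 0, beside 46.7% of all genes. The median over the chaperones was -0.028 and that over all genes -0.00026. Only Hspa14 lay beyond 0.5 in either direction, beside 2.1% of all genes. Values above 0 on all 4 arrays were found for 7 of 66 (10.6%), Ppid, Ppic, Fkbp1a, Pdia4, Ppia, Hspa1b and P4hb, against 7.01% of all genes. Fkbp3, Tcp1 and Dnajb11 were below 0 on all 4, 3 of 66 (4.55%) against 7.75%. These shares rest on few genes and were given no test.

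**Figure D1:**
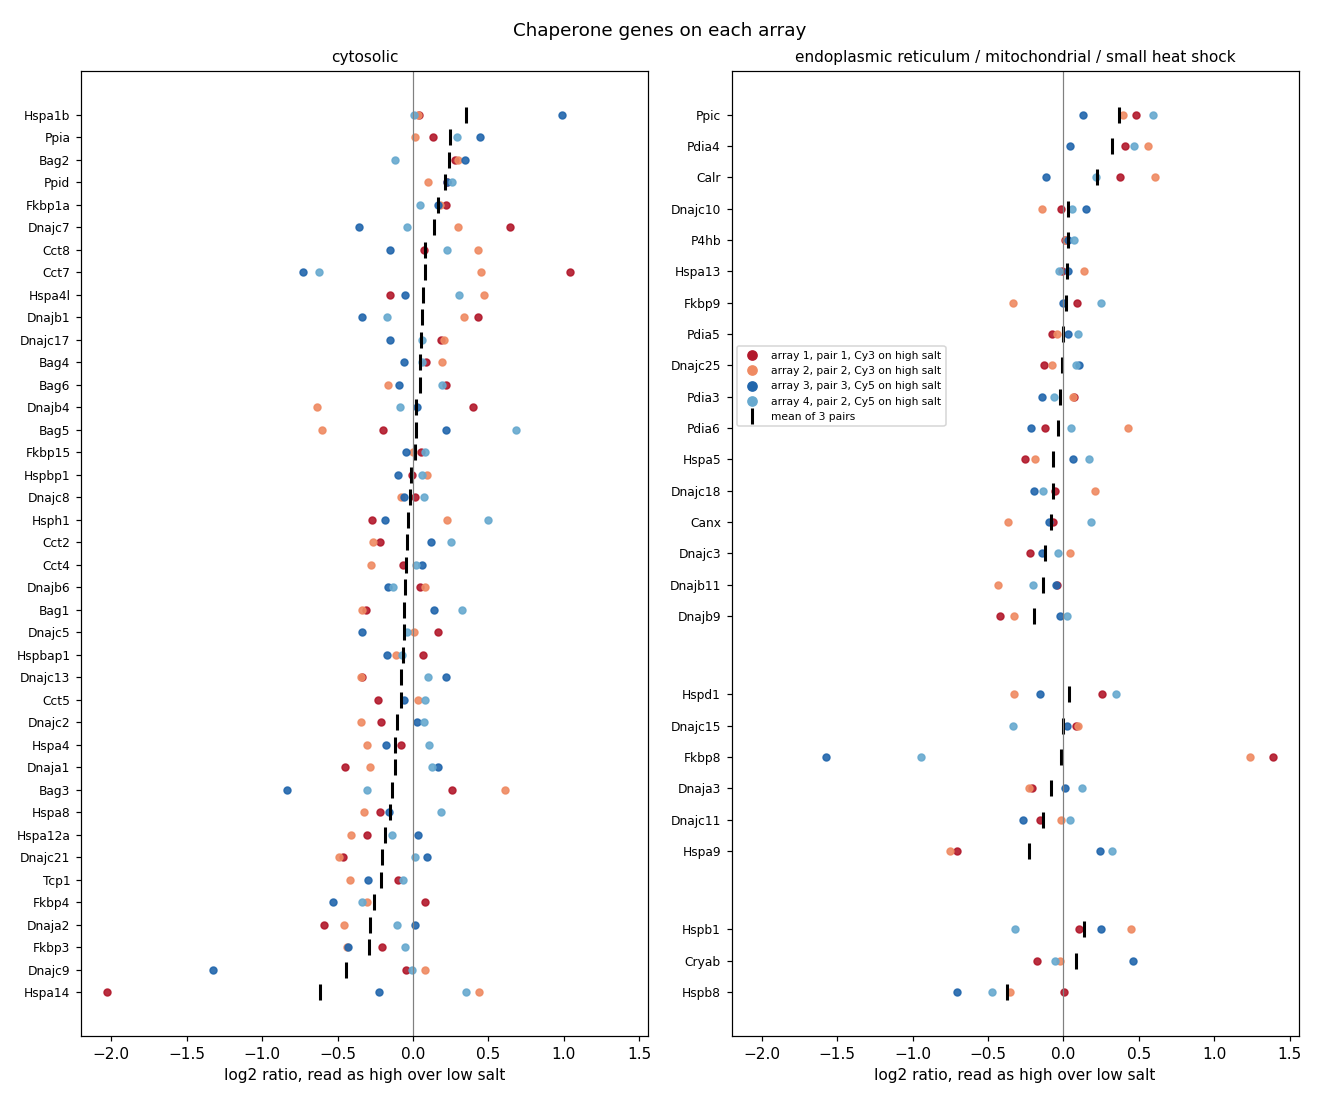
Log2 ratio of each of the 66 chaperone genes (read as high over low salt, horizontal axis) on each of the 4 arrays, ordered by mean within the cytosolic genes (left) and the ER, mitochondrial and small heat shock genes (right). Red and orange points are arrays with Cy3 on high salt, blue points arrays with Cy5 on it, and black ticks the mean of 3 pairs; only Hspa14 has a mean beyond 0.5.

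No compartment mean stood clear of 0. The cytosolic genes averaged -0.046 ± 0.048 (SD of 3 pair values), with array values of -0.046, -0.050, -0.094 and 0.054 on arrays 1 to 4. The ER genes averaged 0.015 ± 0.047, with 0.00092, 0.032, -0.023 and 0.10. The mitochondrial genes averaged -0.071 ± 0.20, going from 0.11 on array 1 and 0.0017 on array 2 to -0.29 on array 3 and -0.074 on array 4. Fkbp8 weighed heavily on that course, at 1.39, 1.23, -1.57 and -0.945 on arrays 1 to 4. The median over the 6 mitochondrial genes was -0.036, -0.12, -0.071 and 0.084 on these arrays. Small heat shock genes averaged -0.051 ± 0.070, with -0.28 on array 4 and the other arrays between -0.023 and 0.021. All 8106 genes averaged 0.0066 ± 0.058, with 0.059, 0.016 and -0.055 in pairs 1 to 3. The cytosolic mean lay below these in each pair, at -0.046, 0.0021 and -0.094, while the other compartments lay on both sides of them. Turned, the cytosolic mean was above that of all genes, at 0.0013 against -0.048. These differences were not tested. In each compartment the SD between pairs was larger than the distance of the mean from 0.

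The ER mean exceeded the cytosolic mean on every array, by 0.047, 0.082, 0.071 and 0.051 on arrays 1 to 4, or 0.061 ± 0.013 over 3 pairs. That order rested on Hspa14 in pair 1: without this gene the difference on array 1 was -0.0041 and the mean difference 0.047 ± 0.044. It was 0.0029 under the turned reading. The ER mean exceeded the mitochondrial mean on 3 of 4 arrays, with -0.11 on array 1 and 0.26 on array 3, a difference of 0.086 ± 0.19. The mitochondrial mean there includes Fkbp8, at 1.39 on array 1 and -1.57 on array 3. Members are not replicates of a condition, and these differences were given no test.

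**Figure D2:**
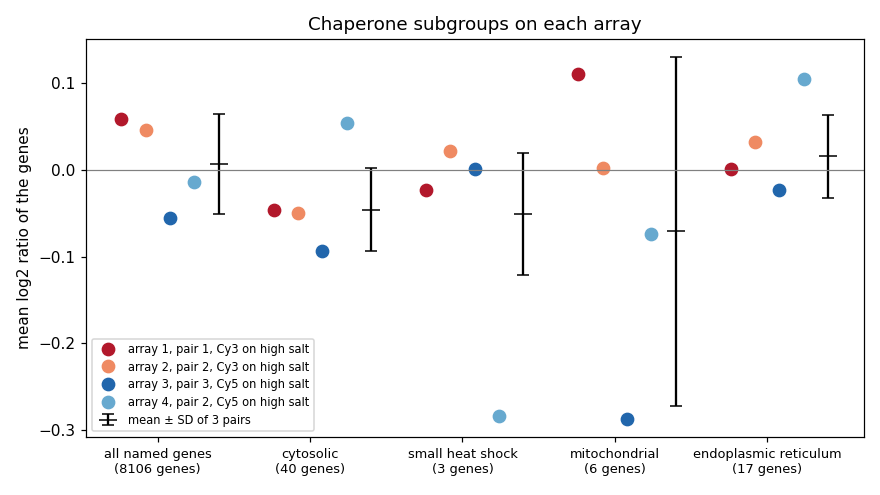
Mean log2 ratio (read as high over low salt, vertical axis) of all 8106 genes and of the cytosolic, small heat shock, mitochondrial and ER chaperones on each array (points, coloured by array), with the mean and SD of 3 pairs (black). The cytosolic and ER points stay between -0.094 and 0.10, the mitochondrial points spread from -0.29 to 0.11, and array 4 sets the 3 small heat shock genes at -0.28.

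Of the cytosolic HSP70 and HSP110 genes, 5 of 7 had means below 0 and 2 above, whereas under the turned reading all 7 were above 0 (family mean 0.18). Hspa8, the constitutive HSP70 known as HSC70, had log2 ratios of -0.22, -0.33, -0.16 and 0.18 on arrays 1 to 4, a mean of -0.15 ± 0.075 (SD, n = 3 pairs; 95% interval -0.33 to 0.028). Array 4 stood on the other side of 0 from array 2, although both held the same mice. Under the turned reading Hspa8 was at 0.11. Its 6 clones ran from -0.31 to 0.025, with 1 above 0. Hspa4, an HSP110-type exchange factor, was also lowest on array 2 and above 0 on array 4 alone, with -0.079, -0.31, -0.18 and 0.11 (mean -0.12 ± 0.052, and 0.036 turned). Hsph1, the heat-inducible HSP110, was negative in pairs 1 and 3 and positive on both arrays of pair 2, at -0.27, 0.22, -0.19 and 0.50. Its mean of -0.033 ± 0.34 is far smaller than its spread.

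Hspa1b, the stress-inducible HSP70, was at 0.041, 0.034, 0.99 and 0.0051, a mean of 0.35 ± 0.55 (95% interval -0.34 to 1.04). It was near 0 in pairs 1 and 2 and high in pair 3 alone, where high-salt RNA carried Cy5. Hspa1a and Hspa1b are nearly identical in sequence, so a clone of either can bind RNA of both, and the value cannot be assigned to 1 copy. Hspa14, a ribosome-associated HSP70, had the lowest mean of all members, -0.62 ± 1.26, with -2.03, 0.44, -0.22 and 0.35. That mean came from a single spot: its second clone read -3.93 on array 1, while its first clone averaged -0.015 over the pairs. Without pair 1 the mean of Hspa14 was 0.086. Hspa12a had a mean of -0.18 and Hspa4l of 0.064. Without Hspa14 the HSP70 and HSP110 mean moved from -0.099 ± 0.29 to -0.012 ± 0.13.

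The CCT chaperonin, the ring that folds actin and tubulin, was represented by 6 of its genes, with 2 above 0 and 4 below (3 above 0 turned). Tcp1, its alpha subunit, was below 0 on all 4 arrays, at -0.097, -0.42, -0.30 and -0.069. Its mean was -0.21 ± 0.10 (95% interval -0.41 to -0.014; limma, adjusted p = 0.870), and it was -0.0094 under the turned reading. Both Tcp1 clone means were below 0, at -0.18 and -0.24, but neither clone was below 0 on all 4 arrays. On array 2 these clones were at 0.24 and -1.07. None of the other 5 subunits had 1 sign on all arrays. Cct2 was negative with Cy3 on high salt (-0.22 and -0.27) and positive with Cy5 on it (0.12 and 0.25), with a mean of -0.036 ± 0.17. Cct4 averaged -0.044, Cct5 -0.080 and Cct8 0.082. Cct7 went the opposite way to Cct2, at 1.04, 0.45, -0.73 and -0.62, a mean of 0.077 ± 0.90 that changed to -0.77 when turned (limma, adjusted p = 0.093). Subunits of 1 ring thus had unlike signs within each array.

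J-domain genes of the cytosolic set were below 0 in 9 of 13 cases, with a family mean of -0.084 ± 0.078. Turned, 6 of 13 were above 0 and the mean was -0.032. Dnaja1, a farnesylated partner of HSC70, was at -0.45, -0.28, 0.17 and 0.13, a mean of -0.12 ± 0.31. Dnajb1, the heat-inducible HSP40, was its mirror image at 0.43, 0.34, -0.34 and -0.17, a mean of 0.060 ± 0.39. Each changed sign with the dye and not with the mice, so that turning the arrays gave 0.27 for Dnaja1 and -0.34 for Dnajb1 (limma, adjusted p = 0.180 and adjusted p = 0.101). Dnajc9 had a mean of -0.45 ± 0.76 that came from array 3, at -1.33, with the other arrays between -0.047 and 0.082. The remaining means ran from -0.29 for Dnaja2 to 0.14 for Dnajc7.

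The BAG genes, grouped here with Hspbp1 and Hspbap1, were evenly divided, 4 of 8 above 0, with a mean of 0.0095 ± 0.069 (2 of 8 above 0 turned). Bag2, an inhibitor of the ubiquitin ligase CHIP, was at 0.28, 0.30, 0.35 and -0.12, a mean of 0.24 ± 0.13 (limma, adjusted p = 0.868). It was above 0 on 3 arrays and below it on array 4, the repeat of array 2. Bag3, which works with HSPB8 to clear damaged sarcomere proteins, was at 0.26, 0.61, -0.84 and -0.30, a mean of -0.14 ± 0.61. Its sign followed the dye, and the turned mean was -0.52 (limma, adjusted p = 0.148). Bag1 and Bag5 had the opposite dye pattern, each negative on arrays 1 and 2 and positive on arrays 3 and 4.

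Among the immunophilins, prolyl isomerases that bind cyclosporin or FK506, the cyclophilins stood on the positive side. Ppia, the abundant cyclophilin A, was at 0.13, 0.016, 0.45 and 0.29, a mean of 0.24 ± 0.18 (95% interval -0.019 to 0.51; limma, adjusted p = 0.931). All 5 of its clones had means above 0, between 0.20 and 0.27, and the turned mean was 0.15. Processed copies of Ppia are frequent in the genome, so its clones may also bind RNA of related sequences. Ppid, the HSP90 partner cyclophilin 40, was at 0.23, 0.098, 0.23 and 0.26. It had the smallest spread of the cyclophilins, a mean of 0.21 ± 0.029 (95% interval 0.054 to 0.37; limma, adjusted p = 0.863), and it stayed above 0 when turned, at 0.027. Ppic, the ER cyclophilin C, was at 0.48, 0.39, 0.13 and 0.59, a mean of 0.37 ± 0.20 (95% interval 0.074 to 0.66; limma, adjusted p = 0.863). It had the highest mean of all 66 members, and -0.083 when turned. Ppic and Ppid rest on 1 clone each, unlike Ppia. The average of these 3 cyclophilins was 0.27 over the pairs and 0.032 under the turned reading, and they were brought together after their values were seen.

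The FK506-binding genes went both ways. Fkbp1a, the calstabin that sits on ryanodine receptors and binds rapamycin, was at 0.22, 0.18, 0.17 and 0.049, a mean of 0.17 ± 0.053 (limma, adjusted p = 0.913; -0.039 turned). Its 2 clones differed, with means of 0.36 and -0.023. Fkbp3, the nuclear FKBP25, was at -0.21, -0.44, -0.43 and -0.051, below 0 on all 4 arrays. Its mean was -0.29 ± 0.12 (95% interval -0.50 to -0.083, and -0.0097 turned), with a limma adjusted p = 0.863. Both clone means were below 0, but neither clone was below 0 on all 4 arrays. The first was at -0.54, -0.72, 0.36 and 0.14 and the second at 0.12, -0.15, -1.22 and -0.24. Their SDs over the pairs were 0.46 and 0.70, so the smaller spread and single sign of the gene came from averaging unlike clones. Fkbp4, the steroid receptor partner FKBP52, was at 0.077, -0.30, -0.53 and -0.33, a mean of -0.26 ± 0.31. Of its 4 clones, 1 was above 0. Fkbp15 averaged 0.016.

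Small heat shock genes did not move together. Cryab, the alphaB-crystallin that stabilises desmin in heart muscle, was at -0.17, -0.026, 0.46 and -0.056, a mean of 0.081 ± 0.33. It was above 0 in pair 3 alone. Hspb1, or HSP25, was at 0.10, 0.45, 0.25 and -0.32, a mean of 0.14 ± 0.098 whose small spread hides opposite values of 0.45 and -0.32 for the same mice on arrays 2 and 4. Hspb8, the partner of BAG3, was at 0.0031, -0.36, -0.70 and -0.47, a mean of -0.37 ± 0.36 (95% interval -0.83 to 0.088; limma, adjusted p = 0.948). It was below 0 in pairs 2 and 3 and at 0 in pair 1, and it kept its direction when turned, at -0.25. Hspb6 and Hspb7, the other abundant small heat shock genes of heart muscle, were not analysed here.

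In the mitochondria, 5 of 6 means were below 0. Turned, 4 of 6 were below 0 and the compartment mean went from -0.071 to -0.15. Hspa9, the mitochondrial HSP70 that pulls proteins through the inner membrane, was at -0.70, -0.75, 0.24 and 0.32, a mean of -0.23 ± 0.47. Negative values came with Cy3 on high salt and positive values with Cy5, also for the shared mice, and turning gave 0.49 (limma, adjusted p = 0.123). Hspd1, or HSP60, whose promoter is printed above, was at 0.26, -0.33, -0.15 and 0.35, a mean of 0.038 ± 0.21. Its 4 clone means lay close together, from -0.0065 to 0.068, although in pair 1 the clones ran from -0.056 to 0.71. Fkbp8, the outer membrane immunophilin, had the largest opposite values of the set, 1.39 and 1.23 on arrays 1 and 2 and -1.57 and -0.94 on arrays 3 and 4. These cancelled to -0.014 ± 1.49, and the turned mean was -1.35 (limma, adjusted p = 0.081). The 3 J-domain genes, Dnaja3, Dnajc11 and Dnajc15, averaged -0.075 ± 0.020, and 0.0037 when turned. That small spread belongs to their average. None of the 3 had 1 sign on all 4 arrays, and their own SDs ran from 0.11 to 0.14. Hspe1, the cochaperonin of HSP60, was not analysed here.

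The ER chaperones showed no joint movement either, with 7 of 17 above 0 and 10 of 17 when turned. BiP (Hspa5) was at -0.25, -0.19, 0.062 and 0.17, a mean of -0.067 ± 0.17 (95% interval -0.32 to 0.19; 0.16 turned). Its 6 clones were divided, 3 above and 3 below 0, from -0.37 to 0.15. Calr, calreticulin, was at 0.38, 0.60, -0.12 and 0.21, a mean of 0.22 ± 0.30, above 0 in pairs 1 and 2 and below it in pair 3 (-0.23 turned). Canx, calnexin, was at -0.068, -0.37, -0.093 and 0.18. Its mean of -0.085 ± 0.015 has a small spread that hides -0.37 and 0.18 in pair 2, and also unlike clones. Its 5 clone means ran from -0.22 to 0.14, and 1 clone was at 1.06 in pair 1 and -0.63 in pair 3. Calr and Canx, paired lectins that share substrates and both carry the ER stress element, thus lay on opposite sides of 0.

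Among the disulfide isomerases, Pdia4 (ERp72) was at 0.41, 0.56, 0.044 and 0.47, a mean of 0.32 ± 0.25 (95% interval -0.015 to 0.66; limma, adjusted p = 0.931). It was above 0 on all 4 arrays and at -0.14 when turned, and it rests on 1 clone. P4hb, the founding isomerase and a subunit of the enzyme that hydroxylates collagen prolines, was between 0.0087 and 0.068 on all 4 arrays, a mean of 0.027 ± 0.017. Pdia3 averaged -0.024 ± 0.11, Pdia6 -0.033 ± 0.24 and Pdia5 -0.0048 ± 0.059. Of the 6 ER J-domain genes, 5 were below 0, a family mean of -0.084 ± 0.061, whereas 5 of 6 were above 0 when turned (mean 0.055). Dnajb9, a BiP partner in disposal of misfolded proteins, had the lowest ER mean, -0.20 ± 0.20, with -0.42, -0.33, -0.022 and 0.024. Dnajb11, the partner that brings clients to BiP, was at -0.043, -0.44, -0.051 and -0.20, below 0 on all 4 arrays (mean -0.14 ± 0.16; 0.036 turned). Dnajc3, an inhibitor of the kinase PERK, averaged -0.12 ± 0.11.

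Members with and without stress elements were set side by side as a description, with no test. The 5 members with an ER stress element had 1 mean above 0 and 4 below, with a median of -0.067 and a range from -0.12 for Dnajc3 to 0.22 for Calr. Members without it had a median of -0.014. The 3 members with a 3-unit heat shock element had a median of -0.033 and lay between -0.049 and 0.038, beside a median of -0.016 without it, and the 10 with a 2-unit element had a median of -0.043, 3 above and 7 below 0, beside -0.013 without it.

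The sign of many values followed the dye orientation and not the mice. Arrays 1 and 2 shared 1 sign and arrays 3 and 4 the opposite sign for 22 of 66 chaperones (33.3%), beside 31.3% of all genes. Of these, 8 were positive with Cy3 on high salt and 14 negative. The orientation means were more than 0.5 apart for 13 chaperones (19.7%), beside 18.9% of all genes. That gap was found in 11 of 40 cytosolic genes, 2 of 6 mitochondrial genes and none of the 17 ER genes, a difference that was not tested. Fkbp8 had the widest gap, 2.57, followed by Cct7 at 1.42 and by Hspa9 and Bag3 at 1.01 in opposite directions. Across the 66 genes, r was 0.44 between both arrays with Cy3 on high salt and 0.52 between both with Cy5 on it, whereas arrays 2 and 4, with the same mice, correlated at -0.24. Over all 8106 genes these values were 0.57, 0.47 and -0.073. Genes are not independent points, and these correlations only describe the arrays. Under the turned reading 13 chaperones had an unadjusted limma p under 0.05, 7 above 0 and 6 below, beside 20.8% of all genes, and none passed the adjusted threshold.

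**Figure D3:**
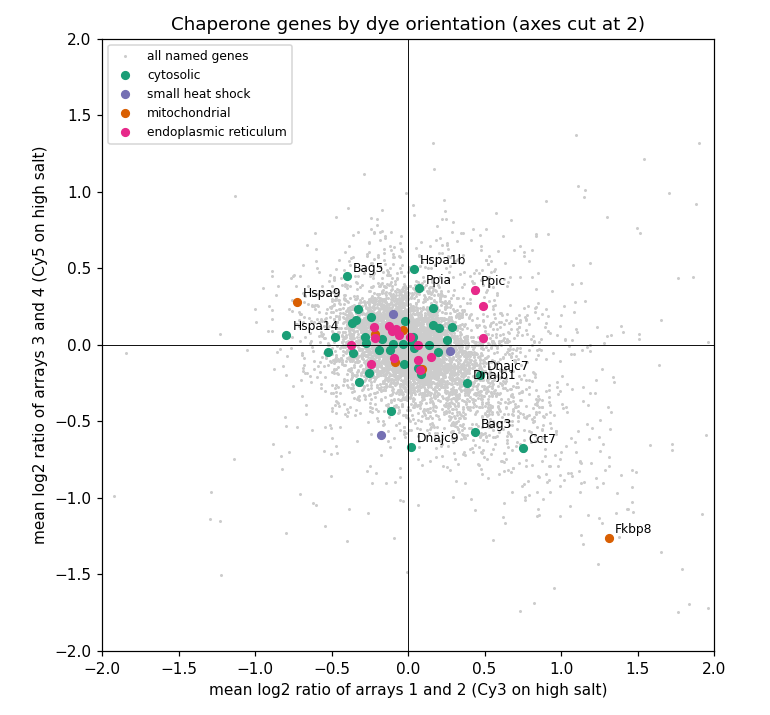
Mean log2 ratio of arrays 1 and 2 (Cy3 on high salt, horizontal axis) against that of arrays 3 and 4 (Cy5 on high salt, vertical axis) for the 66 chaperones, coloured by compartment, over all named genes in grey (axes cut at 2, which leaves 10 genes outside). Fkbp8, Cct7 and Bag3 lie far to the lower right and Hspa9 and Bag5 to the upper left, where the sign follows the dye, while Ppic is positive on both axes.

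Repeat clones bound how well a single gene value can be trusted. Of 38 chaperone genes with several clones, 18 had clones with means on both sides of 0, and the median range between clones was 0.14. Ranges over 0.5 were found for 4 genes, Hspa14 (1.21), Cct7 (0.90), Fkbp4 (0.54) and Hspa5 (0.52), with Bag3 next at 0.42. For Cct7, 3 clones lay between -0.19 and -0.069 and the other 1 at 0.71. By contrast the clone means of Ppia, Hspd1, Tcp1 and P4hb lay within 0.076, 0.075, 0.061 and 0.025. Close means can hide unlike single values. The Tcp1 clones were at -1.07 and 0.24 on array 2, and the Hspd1 clones ran from -0.60 to 0.18 in pair 3.

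**Figure D4:**
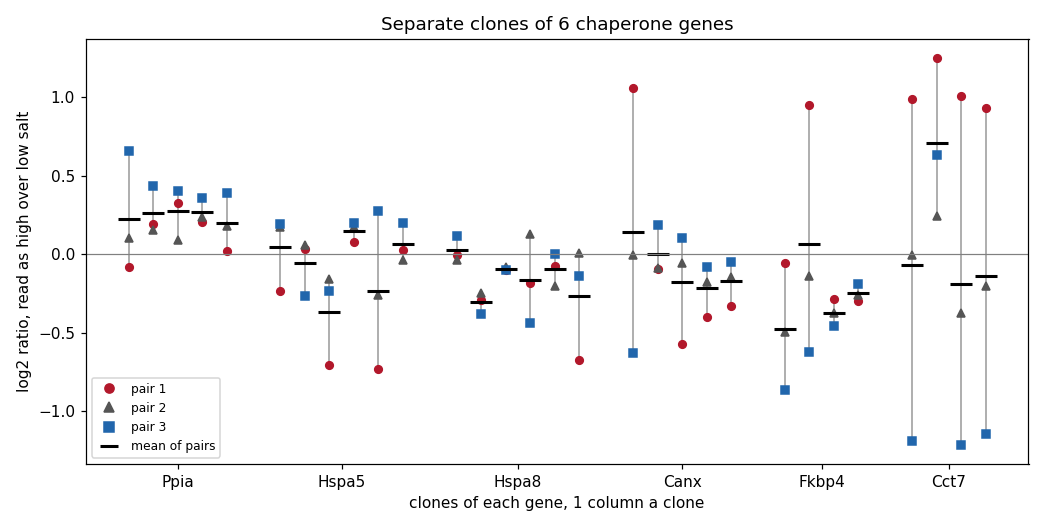
Log2 ratio (vertical axis) of each clone of Ppia, Hspa5, Hspa8, Canx, Fkbp4 and Cct7, with 1 column a clone, points for the 3 pairs and a black bar for their mean. The 5 Ppia bars lie between 0.20 and 0.27, while the Hspa5 bars run from -0.37 to 0.15 and 1 Cct7 clone stands at 0.71 above the other 3.

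Partner systems of the chaperones, from lists of related genes, also had no gene past the adjusted threshold. In the HSP90 system 8 of 15 genes were above 0 and 7 below, with a median of 0.0092 (6 of 15 above 0 turned). Hsp90aa1, the inducible cytosolic HSP90, averaged 0.22 ± 0.21, above 0 on all 4 arrays (-0.071 turned). Hsp90b1, the ER HSP90 known as GRP94, was at -1.21, -1.05, 0.79 and 1.16, a mean of -0.12 ± 1.01 that became 1.03 when turned (limma, adjusted p = 0.081). Fkbp5, an HSP90 co-chaperone induced by corticosteroids, averaged 1.43 ± 0.54 (limma, adjusted p = 0.704). It became -0.39 when turned. Tomm34 was below 0 on all arrays, at -0.12.

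Regulators and targets of the unfolded protein response had 4 of 12 means above 0 and 8 below, with a median of -0.021, whereas 9 of 12 were above 0 when turned. Ppp1r15a, the stress-induced subunit that reverses eIF2alpha phosphorylation, averaged -0.91 ± 0.36 (limma, adjusted p = 0.776). Xbp1, a transcription factor of the same response, averaged -0.47 ± 0.29 (limma, adjusted p = 0.863). Both were below 0 on all 4 arrays and at 0.060 and 0.059 when turned. In ER oxidative folding and ER-associated degradation 16 of 25 were above 0 (mean 0.056), and 9 of 25 when turned (mean -0.21). Ubxn4 was at 0.15 ± 0.058, positive on every array. Of the prefoldins, which pass actin and tubulin to CCT, 2 of 7 were above 0 and 5 below (1 of 7 above 0 turned), and Pfdn5 averaged -0.25 ± 0.051.

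Among other heat shock genes, 1 of 3 was above 0. It was Serpinh1, the ER chaperone of collagen known as HSP47, at 0.62, 1.23, -0.085 and 0.24, a mean of 0.42 ± 0.44 (-0.40 turned). Clpb, a mitochondrial disaggregase, averaged -0.26 ± 0.062, below 0 on all 4 arrays.

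Mitochondrial import and protease genes had 1 of 20 means above 0 and 19 below, where 49.8% of all genes were above 0. Turned, 9 of 20 were above 0, beside 46.7% of all genes, and the mean was -0.20. In the first reading their median was -0.072 and their mean -0.095 ± 0.25, and on single arrays they averaged 0.16, -0.012, -0.35 and -0.18. The mean of the group therefore changed sign between pairs, whereas its median was -0.025, -0.067, -0.27 and -0.086 on arrays 1 to 4. Tomm40 was at 2.29 on array 1 and -1.57 on array 3. The mean of the mitochondrial chaperones also changed sign between pairs, with Fkbp8 at 1.39 on array 1 and -1.57 on array 3. Timm23, the import channel, averaged -0.23 ± 0.074, Tomm20, a receptor on the outer membrane, -0.15 ± 0.11, and Grpel1, the exchange factor of Hspa9, -0.16 ± 0.12, each below 0 on all 4 arrays. Turning brought Timm23 to 0.027 and Tomm20 to 0.096.

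Markers of the cell types in ventricle pieces were read beside the chaperones. In whole tissue, fewer cells of a type and less RNA per cell cannot be told apart. Of 15 cardiomyocyte markers listed, 3 were measured (Ttn, Atp2a2 and Ryr2), averaging -0.011 ± 0.10, and ratios give no level with which to check the labelled tissue. Of 10 measured fibroblast markers, 9 were above 0, from -0.041 to 1.04, averaging 0.45 ± 0.011 with pair values of 0.46, 0.45 and 0.44. Turned, 5 of 10 were above 0 and the mean was 0.021. Among the 17 ER chaperones 7 means were above 0 and 10 below, and the part of the fibroblast markers in the positive values, such as those of Ppic and Pdia4, was not tested. The 6 endothelial markers averaged 0.067 ± 0.40, the 4 smooth muscle and pericyte markers 0.11 ± 0.073, the 4 macrophage and leukocyte markers 0.037 ± 0.12 and the 4 adipocyte markers 0.094 ± 0.10. The single blood marker, Alas2, was at 0.0048 and the single atrial marker, Dkk3, at 0.49 ± 0.047.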

How the data were processed

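Per the labels' protocols, RNA of ventricles was labelled by reverse transcription and hybridised to printed cDNA clones. The authors deposited 1 log2 ratio per feature and array (base 2 assumed). No background correction or normalization is named in the labels or the table. Values ran from -7.35 to 5.14, and 457 of 17664 features had none. Clones with 1 symbol in the platform annotation were averaged per gene (12563 features, 8106 genes with values). The 2 dye-swapped arrays of pair 2 were averaged, and 3 pair values per gene entered an intercept fit in limma 3.58.1 (R 4.3.3; lmFit, eBayes), with Benjamini-Hochberg adjustment at 0.05. The fit was run on simulated independent values without a dye effect, which checks the code and not its performance on these arrays. Whether the arrays had been turned to 1 direction is not stated, so each value was also computed with arrays 1 and 2 turned.

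Genes were named by a rule: members with 1 sign on all 4 arrays (up to 12 in each direction), landmark members, the highest and lowest mean of each compartment, the 5 genes whose clones differ most, and, in related lists, up to 3 genes in each direction with 1 sign on all 4 arrays. Bag2, Dnajc9, Dnajc15, Fkbp8, Hsp90b1 and Serpinh1, and members named to complete a family, were named after their values were seen. The members and lists were chosen with earlier results of these data known. Each pair had its own mice, so p-values rest on the spread between 3 pairs, moderated by limma over all genes. Pair 1 had only Cy3 on high salt and pair 3 only Cy5, so that spread holds the dye orientation as well as the mice. Promoters came from RefSeq (GRCm38.p6). Alternatives tried were the direction, scaling, centring, clone summary, either array of pair 2, a dye covariate, core members only, robust moderation, clones tested alone and leaving out each pair.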

Additional observations from a re-analysis of the deposited data

Results flagged for a closer look

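Among the 66 chaperones, 4 (6.06%) had 1 array far from the other 3, by a gap that exceeded Dixon's 95% limit as a part of the range of the 4 values, as did 377 of all 8106 genes (4.65%). Chance flags about 1 in 20 groups of independent values. Arrays 2 and 4 hold the same mice, so the 4 values are not independent. Hspa1b was at 0.99 on array 3, with the other arrays between 0.0051 and 0.041. Dnajc9 was at -1.33 on array 3, with the others between -0.047 and 0.082. Bag2 was at -0.12 on array 4, with the others between 0.28 and 0.35. Dnajc15, a mitochondrial J-domain gene, was at -0.33 on array 4, with the others between 0.023 and 0.094. Each rests on 1 clone.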

How the results depend on the processing

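No gene was called under any alternative, including each clone tested alone and robust moderation. The 4 chaperones higher at an unadjusted p under 0.05 became 7 with the arrays turned, 6 with dye as a covariate, 5 with the median of clones and 0 to 4 when a pair was left out. The 2 lower ones became 6 with the arrays turned, 0 with pair 2 taken from array 4, 9 with dye as a covariate and 0 to 4 when a pair was left out. In either direction 5.44% of all genes passed that level, against 20.8% with the arrays turned and 14.7% with dye as a covariate. That share was 5.48% with the median of clones and 4.82% with pair 2 taken from array 4. It was 4.03% without pair 1, 1.79% without pair 2 and 10.5% without pair 3. Over the alternatives the cytosolic mean ran from -0.070 to 0.0013 and the small heat shock mean from -0.10 to -0.00032. The mitochondrial mean ran from -0.16 to 0.037, positive without pair 3, where Fkbp8 averaged 0.77. The ER mean ran from -0.011 to 0.043, negative without pair 2. Of 49 named genes, 33 kept their direction under all alternatives but the turned one. Centring on the median and leaving out pair 2 reversed none. Dye as a covariate could reverse none, because the orientations are balanced over the pairs and each mean stays the same. The causes were not tested.

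Turning the arrays reversed 30 of the 49, to -0.083 for Ppic, -0.039 for Fkbp1a, -0.14 for Pdia4, 0.036 for Dnajb11 and Hspa4, 0.11 for Hspa8, 0.073 for Hsph1, 0.20 for Cct2, 0.27 for Dnaja1, -0.34 for Dnajb1, -0.079 for Hspb1, -0.024 for Hspd1, 0.49 for Hspa9, 0.13 for Dnaja3, 0.16 for Hspa5, -0.23 for Calr, 0.083 for Canx, 0.19 for Dnajb9, 0.014 for Dnajc3, 0.59 for Hspa14, -0.77 for Cct7, -0.39 for Fkbp5, -0.071 for Hsp90aa1, 0.060 for Ppp1r15a, 0.059 for Xbp1, 0.027 for Timm23, 0.096 for Tomm20, -0.048 for Bag2, 1.03 for Hsp90b1 and -0.40 for Serpinh1. Pair 2 from array 4 alone gave 0.013 for Hsph1, 0.050 for Cct2, -0.024 for Dnajb1, 0.0069 for Canx, -0.10 for Cct7 and 0.25 for Hsp90b1. Pair 2 from array 2 alone gave 0.011 for Bag3, -0.074 for Hspd1, 0.030 for Pdia6 and 0.35 for Fkbp8. The median of clones gave 0.023 for Hspa5 and -0.092 for Cct7, and scaling gave 0.017 for Fkbp8. Leaving out 1 pair at a time reversed 15 genes in at least 1 case, with ranges from -0.23 to 0.086 for Hsph1, from -0.11 to 0.055 for Cct2, from -0.26 to 0.044 for Dnaja1, from -0.13 to 0.26 for Dnajb1, from -0.34 to 0.21 for Bag3, from -0.11 to 0.21 for Cryab, from -0.071 to 0.13 for Hspd1, from -0.46 to 0.013 for Hspa9, from -0.13 to 0.026 for Hspa5, from -0.069 to 0.034 for Pdia3, from -0.17 to 0.057 for Pdia6, from -1.13 to 0.086 for Hspa14, from -0.41 to 0.48 for Cct7, from -0.71 to 0.77 for Fkbp8 and from -0.58 to 0.42 for Hsp90b1. Each value is the ratio of 1 high-salt to 1 low-salt mouse, so the fit is already paired and has no unpaired form.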
